A study of Mus musculus with 5 samples.

Results

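The 10 genes studied here belong to MHC class I antigen presentation and were measured in mouse LSK cells. These are sorted bone marrow cells (Lin- Sca1+ cKit+) among which blood stem cells and early progenitors are found. The genes form a named list whose rule uses no measured value, although the list was drawn up with earlier results of these data known: the class I heavy chains H2-K1, H2-D1 and H2-T23, their shared light chain B2m, the peptide transporter subunits Tap1 and Tap2, the loading chaperone Tapbp, the immunoproteasome subunits Psmb8 and Psmb9, and the class I transactivator Nlrc5. All 10 of 10 members were among the 24210 genes left when the transcript with the most counts was kept for each gene, and all 10 passed the filter on low counts that left 14475 genes for testing. Their lowest count in any library was 3028.

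The libraries were made from cells sorted from C57BL/6 mice aged 12 months, per the series' design text. The titles name 3 KO and 2 WT libraries, and the knockout is a germ-line allele, per the same text, not one limited to blood cells. Titles of the first group read KO but its genotype entry is heterozygous for that allele, so these libraries are called KO-labelled here, while the WT libraries are given as wild type. The series' design text names both heterozygous and homozygous animals, so the genotype behind the KO-labelled libraries is not settled here. Whether each library is a separate mouse is not stated, so the spread behind every p-value may be technical.

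MHC class I molecules show peptides from inside the cell to CD8 T cells and to natural killer cells, and nearly every nucleated cell carries them. The proteasome cuts proteins into peptides, Tap1 and Tap2 together pump the peptides into the endoplasmic reticulum, tapasin (the product of Tapbp) holds the empty class I molecule at the pump, and the heavy chain with beta-2-microglobulin then carries the peptide to the surface. Interferons are known to raise nearly all of these genes through Irf1 and Nlrc5, among others. Nlrc5 acts with the RFX and NF-Y factors at a conserved group of promoter boxes, known as the S-X-Y module, that class I and B2m promoters share.

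The upstream promoter sequences of 4 loci are shown because they carry, or lack, the boxes through which these genes are known to be driven together. RefSeq's promoter table on build GRCm38.p6 held 8 of the 10 members; Nlrc5 and Tap2 were not matched. Each run below is the 250 bases before the annotated transcription start, read 5′ to 3′ on the gene's strand. Capitals mark TGACG (the core of the X2 box and of cyclic-AMP response elements), CCAAT (the NF-Y box, which reads ATTGG on the other strand), the NF-kB pattern (GGG, any 2 bases, then TTCCC) and the interferon regulatory factor core AANNGAAA, on either strand.
H2-K1, chr17:34000348-34000597, minus strand: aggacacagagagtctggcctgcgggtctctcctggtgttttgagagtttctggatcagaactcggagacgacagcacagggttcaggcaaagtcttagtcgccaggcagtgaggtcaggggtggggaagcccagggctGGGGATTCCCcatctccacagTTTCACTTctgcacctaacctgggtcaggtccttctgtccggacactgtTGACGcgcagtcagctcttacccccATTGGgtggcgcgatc
H2-D1, chr17:35262844-35263093, plus strand: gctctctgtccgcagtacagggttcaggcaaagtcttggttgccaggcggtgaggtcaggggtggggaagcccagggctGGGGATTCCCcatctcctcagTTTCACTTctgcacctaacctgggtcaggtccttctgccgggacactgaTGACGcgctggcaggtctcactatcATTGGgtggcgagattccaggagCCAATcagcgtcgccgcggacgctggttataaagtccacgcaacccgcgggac
B2m, chr2:122147437-122147686, plus strand: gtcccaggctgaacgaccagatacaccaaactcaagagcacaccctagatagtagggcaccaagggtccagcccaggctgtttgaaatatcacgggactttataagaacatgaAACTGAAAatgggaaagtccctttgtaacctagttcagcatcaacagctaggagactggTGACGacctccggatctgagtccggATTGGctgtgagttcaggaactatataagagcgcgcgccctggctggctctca
Tap1, chr17:34187306-34187555, plus strand: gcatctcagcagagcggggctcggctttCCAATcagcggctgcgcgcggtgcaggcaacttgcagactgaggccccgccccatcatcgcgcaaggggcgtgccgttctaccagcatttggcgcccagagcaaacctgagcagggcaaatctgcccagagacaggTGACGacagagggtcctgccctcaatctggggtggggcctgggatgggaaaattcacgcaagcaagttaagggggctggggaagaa

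In H2-K1, H2-D1 and B2m a TGACG was followed, on the gene's strand and 20 bases further on, by ATTGG. Such a pair at 10 to 30 bases stood in 0.31% of the 32851 promoter windows of the same length, and one at exactly 20 bases in 0.0548%, or 18 windows. Both shares include the windows of H2-K1, H2-D1 and B2m themselves. A gene can have more than 1 window: a second H2-K1 window, not shown, held the same pair and a further CCAAT. H2-K1 and H2-D1 also held the NF-kB pattern, found in 1.53% of windows, and an AANNGAAA core downstream of it, found in 21.3%. B2m held the AANNGAAA core and no match to the NF-kB pattern. TGACG alone stood in 17.8% and CCAAT alone in 33.8% of all windows, so single matches are common. The Tap1 window overlapped that of Psmb9 on the opposite strand by 225 bases, and it held TGACG and CCAAT but neither of the other patterns. The H2-T23 window held CCAAT and AANNGAAA matches, the Tapbp window CCAAT matches, and the Psmb8 window none of the capitalised patterns. Psmb8 had instead 1 match to the pattern TTCNNNGAA, known as the gamma-activated sequence, the only member with one among the 8; that pattern was found in 7.02% of windows. The patterns and the spacing were chosen with these sequences in view, and a match describes letters, not binding.

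No member passed the test between KO-labelled and WT libraries. By edgeR's quasi-likelihood test with Benjamini-Hochberg adjustment over all 14475 tested genes, 0 of 10 members rose and 0 fell at an adjusted p under 0.05; over all tested genes 1.98% did, 0.794% higher and 1.19% lower, so a count of 0 among 10 is near this background. At an unadjusted p under 0.05 there were 2 of 10, B2m and H2-K1, both higher, against 13.8% of all tested genes (6.78% higher and 7.05% lower). In all, 8 of 10 members had a log2 fold change above 0, against 50.1% of all tested genes, and 2 below, Tap2 and H2-T23. The median log2 fold change of the members was 0.09, beside 0.001 over all tested genes. Levels below are CPM (counts scaled to a common library total, adjusted by TMM factors); fold changes are KO-labelled over WT with their standard error (SE).

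**Figure D1:**
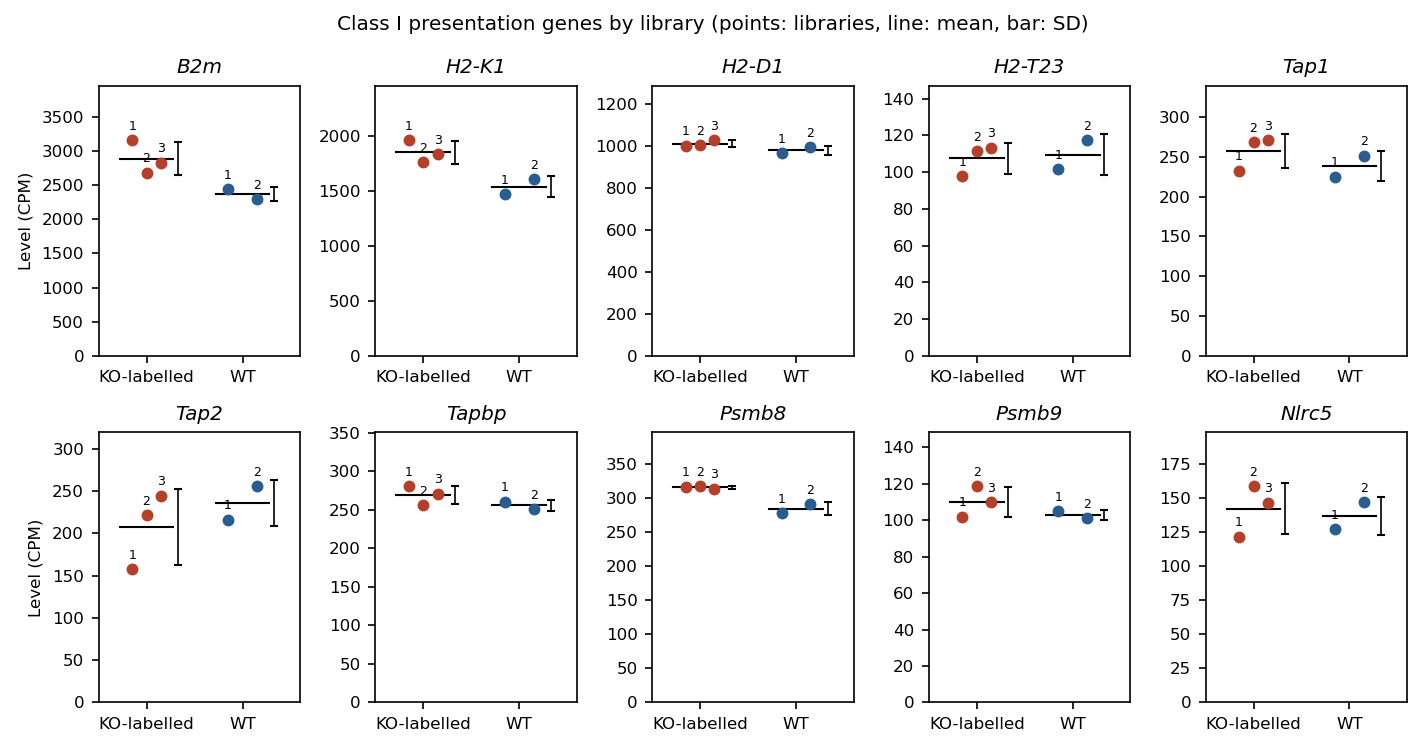
Level of each class I presentation gene (CPM, y axis from 0) in the 3 KO-labelled libraries (red, left) and the 2 WT libraries (blue, right); numbers name the libraries, lines are means and bars SD. The groups stand apart for B2m, H2-K1, H2-D1 and Psmb8 and overlap for the other 6 genes.

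Among the heavy chains, H2-K1, which encodes the classical chain H-2K, stood at 1967, 1762 and 1836 CPM in KO-labelled libraries 1 to 3, against 1472 and 1608 CPM in WT libraries 1 and 2. Every KO-labelled library was above both WT libraries. The log2 fold change was 0.27 ± 0.08, with an adjusted p = 0.117 by edgeR's test, and its unadjusted 95% interval ran from 1.07-fold to 1.35-fold.

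H2-D1, the other classical heavy chain, stood at 1002, 1004 and 1029 CPM in KO-labelled libraries and at 965 and 994 CPM in WT libraries, and the groups were narrowly apart. Its log2 fold change was 0.05 ± 0.07 (edgeR adjusted p = 0.837), and the 95% interval of the change ran from -7.07% to 14.7%. H2-T23, which encodes the non-classical molecule Qa-1 read by natural killer receptors, stood at 97.8, 111 and 113 CPM in KO-labelled libraries and at 102 and 118 CPM in WT libraries, and the groups overlapped (log2 fold change -0.03 ± 0.10, edgeR adjusted p = 0.943).

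Reads that cannot be told apart limit the heavy chains. Of the 50-base windows of the H2-T23 transcript, 28.8% occurred identically in a transcript of another gene, as did 14.3% of those of H2-D1 and 8.79% of those of H2-K1, mostly in H2-D1. How the authors counted reads shared between genes is not recorded in the labels, so the 3 chains are uncertain for that reason. B2m, Psmb8, Psmb9 and Nlrc5 had 0% such windows, Tap1 and Tap2 shared under 1% with each other (0.861% and 0.737%), and Tapbp had 2.0%.

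B2m, the light chain that all class I molecules need to leave the endoplasmic reticulum, was the most abundant member per kilobase of transcript. It stood at 3159, 2680 and 2824 CPM in KO-labelled libraries and at 2436 and 2292 CPM in WT libraries, and KO-labelled library 1 was the highest. Its fold change was 1.22 (log2 0.29 ± 0.08, edgeR adjusted p = 0.109; 95% interval 1.08-fold to 1.38-fold, unadjusted). B2m and H2-K1 were the members nearest to the threshold, and their call depends on the method. Without KO-labelled library 1 both passed, at adjusted p = 0.0363 for B2m and 0.0438 for H2-K1, with smaller fold changes (log2 0.22 each). Both also passed with DESeq2 (0.0367 and 0.0362) and with limma and sample weights (0.0149 and 0.0212), and B2m passed with no count filter (0.0299). Without WT library 1 the adjusted p was 0.476 for B2m and 0.654 for H2-K1, and without WT library 2 it was 0.514 and 0.332.

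Neither transporter subunit passed. Tap1 stood at 233, 268 and 271 CPM in KO-labelled libraries and at 225 and 251 CPM in WT libraries (log2 fold change 0.11 ± 0.09, edgeR adjusted p = 0.66). Tap2 stood at 158, 222 and 245 CPM in KO-labelled libraries and at 216 and 256 CPM in WT libraries (log2 fold change -0.18 ± 0.16, edgeR adjusted p = 0.692). KO-labelled library 1 was the lowest of all 5 for Tap2, well apart from the other 4, and Tap2 had the widest interval of the members, from -31.5% to 13.5%. Tapbp, whose product tapasin is needed to load peptides of high affinity, stood at 280, 256 and 271 CPM in KO-labelled libraries and at 261 and 251 CPM in WT libraries, and the groups overlapped (log2 fold change 0.07 ± 0.08, edgeR adjusted p = 0.757).

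The immunoproteasome subunits replace constitutive catalytic subunits and shift cleavage towards peptides that class I binds well. Psmb8 stood at 316, 317 and 314 CPM in KO-labelled libraries and at 278 and 291 CPM in WT libraries, the tightest KO-labelled values of any member. All 3 lay above both WT libraries, but the log2 fold change of 0.15 ± 0.08 did not pass (edgeR adjusted p = 0.419). Psmb9, which lies head to head with Tap1, stood at 102, 119 and 110 CPM in KO-labelled libraries and at 105 and 101 CPM in WT libraries, with overlap between the groups (log2 fold change 0.10 ± 0.10, edgeR adjusted p = 0.723). Nlrc5, the transactivator, stood at 122, 159 and 147 CPM in KO-labelled libraries and at 127 and 147 CPM in WT libraries (log2 fold change 0.05 ± 0.12, edgeR adjusted p = 0.895). Its KO-labelled libraries spanned the WT values on both sides. In all, the groups did not overlap for 4 of 10 members, each higher in the KO-labelled libraries, against 32.9% of all tested genes whose groups were apart, 16.5% higher and 16.3% lower.

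**Figure D2:**
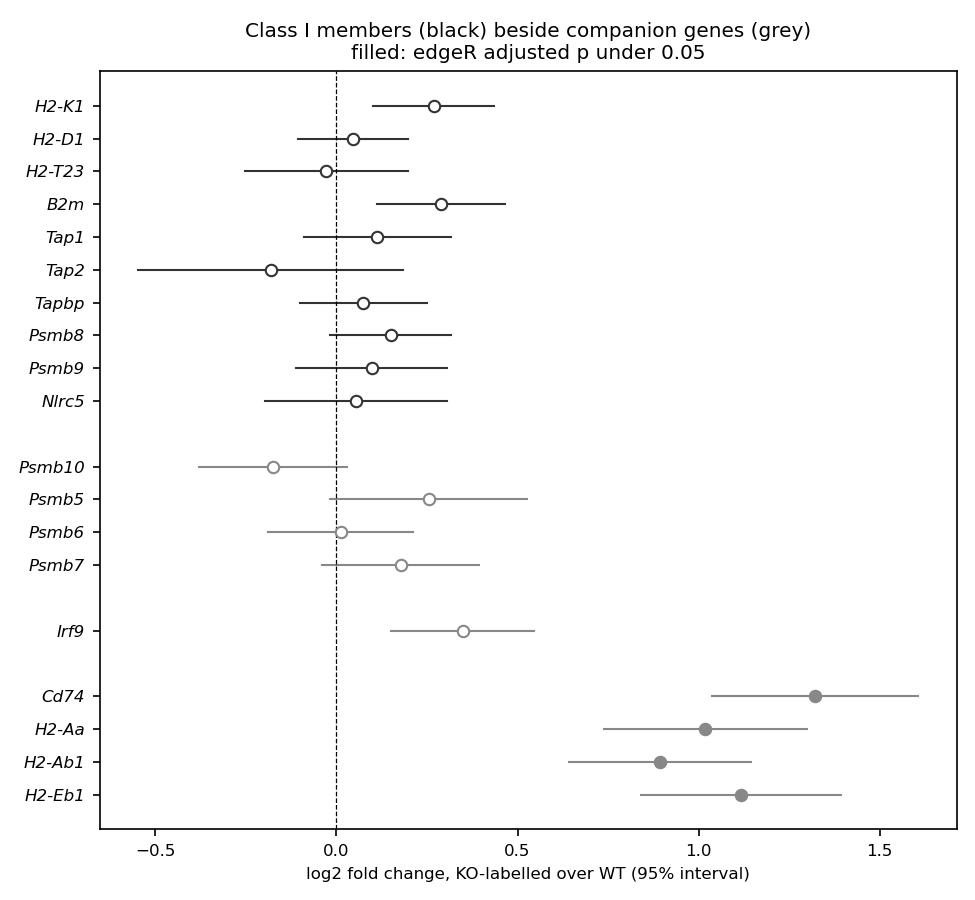
Log2 fold change of KO-labelled over WT libraries (x axis) with its unadjusted 95% interval for the class I members (black), further proteasome subunits, Irf9, and the 4 of 10 MHC class II genes that passed (grey); filled points passed edgeR's adjusted p of 0.05. No class I member is filled, and these 4 class II genes, chosen because they passed, lie to the right of all 10 members.

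Per kilobase of transcript, the order of levels was B2m, H2-K1, H2-D1, Psmb8, Tapbp, Tap1, Psmb9, H2-T23, Tap2 and Nlrc5. On this scale (CPM per kilobase, RPKM) B2m stood at 3358 ± 286 in KO-labelled libraries (SD, n = 3) and 2749 ± 118 in WT libraries (SD, n = 2), H2-K1 at 1146 ± 64.1 in KO-labelled libraries and 951 ± 59.5 in WT libraries, and H2-D1 at 481 ± 7.21 in KO-labelled libraries and 466 ± 9.62 in WT libraries. Psmb8 followed at 194 ± 1.08 RPKM in KO-labelled libraries and 175 ± 5.68 RPKM in WT libraries. The ranges over all 5 libraries were apart between each of the first 4 genes and the next. From Tapbp through Tap1, Psmb9 and H2-T23 to Tap2, each gene overlapped the next, with means over all libraries between 91.0 RPKM for Tapbp and 63.7 RPKM for Tap2, so their order is not settled. Nlrc5 was the lowest member and apart from Tap2, at 20.5 ± 2.71 RPKM in KO-labelled libraries and 19.7 ± 2.04 RPKM in WT libraries. Shares were taken of the counts left with 1 transcript per gene, which are fewer than the total counts of each library. Of these the 10 members took 0.745%, 0.683% and 0.712% in the KO-labelled libraries, against 0.619% and 0.638% in the WT ones. Most of that was B2m and H2-K1.

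KO-labelled library 1 stood apart within its group. It was the highest of the 5 libraries for B2m, H2-K1 and Tapbp, and the lowest for Tap2, H2-T23 and Nlrc5. Across all tested genes its log2 CPM lay 0.08 above the gene means (median) in the quartile of genes with the shortest transcripts and at -0.09 in the quartile with the longest. The medians of the other 4 libraries stayed between -0.02 and 0.04 in every quartile. B2m, at 860 bases, is the shortest member, and Tap2, at 3442, and Nlrc5, at 6945, are the longest. In KO-labelled library 1 they lay at 0.25, -0.45 and -0.20 from their gene means in log2 CPM. Psmb9, at 1352 bases, and H2-T23, at 1472, are short too but lay at -0.07 and -0.14 in that library. Tapbp, at 2898 bases, lay at 0.09. With an offset for transcript length the log2 fold changes of the members kept their directions and 0 of 10 passed; adjusted p was 0.069 for B2m and 0.085 for H2-K1. The part of transcript length in single members was not tested.

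**Figure D3:**
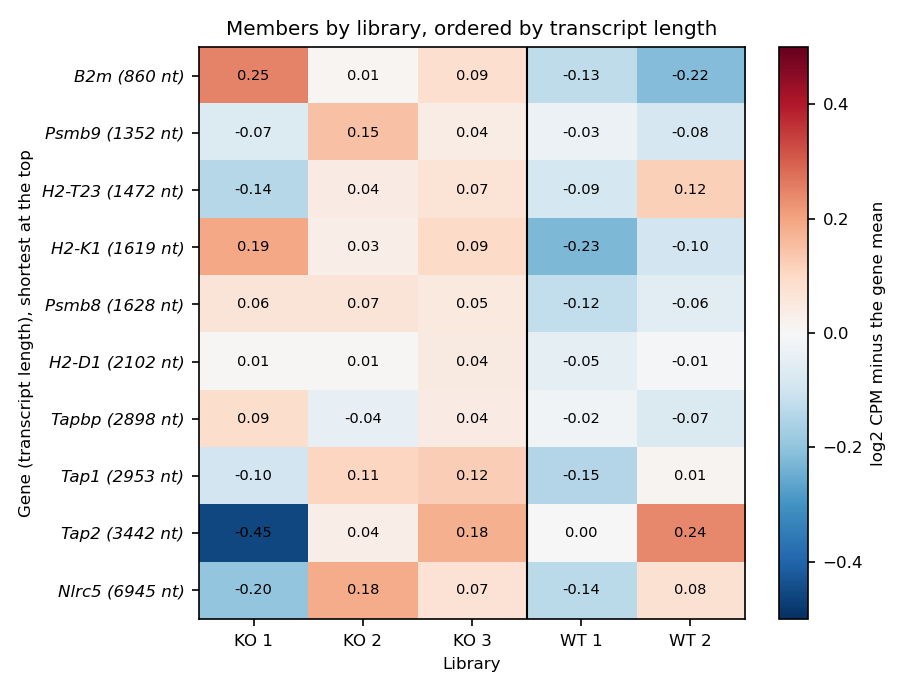
Log2 CPM minus each gene's mean over the 5 libraries (colour and printed value) for the members, ordered from the shortest transcript at the top to the longest at the bottom, with KO-labelled libraries left of the line and WT libraries right of it. KO library 1 is at 0.25 for B2m, and at -0.45 for Tap2 and -0.20 for Nlrc5 near the bottom. It is also at -0.07 for Psmb9 and -0.14 for H2-T23 near the top, and at 0.09 for Tapbp.

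Ratios of a pair of genes within a library do not depend on library scaling. Of 6 ratios computed, 4 did not overlap between the groups. Single genes were apart in 32.9% of those tested. No share over all pairs of genes was computed, so the count of 4 is given without one and not read as a result. However, 3 libraries against 2 give a two-sided exact permutation p of 0.2 at best, so no ratio could pass. The H2-K1 over H2-D1 log2 ratio was 0.97, 0.81 and 0.83 in KO-labelled libraries and 0.61 and 0.69 in WT libraries, a difference of 0.22 (exact permutation p = 0.2, adjusted p = 0.3 over the 6). The Tap1 over Tap2 log2 ratio was 0.56, 0.28 and 0.15 in KO-labelled libraries and 0.06 and -0.02 in WT libraries (difference 0.31, exact permutation p = 0.2, adjusted p = 0.3). KO-labelled library 1 was the most extreme of the 5 in each of these ratios. B2m over H2-K1 overlapped, with a mean log2 ratio of 0.64 ± 0.04 in KO-labelled and 0.62 ± 0.15 in WT libraries (exact permutation p = 1.0).

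The immunoproteasome subunits were set against the subunits they replace. Psmb8 over Psmb5 had a log2 ratio of 3.13, 3.15 and 3.07 in KO-labelled libraries and 3.22 in both WT libraries (difference -0.10, exact permutation p = 0.2, adjusted p = 0.3), and Psmb9 over Psmb6 overlapped between the groups (difference 0.08, exact permutation p = 0.6, adjusted p = 0.72). Psmb10, the third immunoproteasome subunit, stood at 90.8, 90.7 and 98.3 CPM in KO-labelled libraries and at 101 and 110 CPM in WT libraries, a log2 fold change of -0.18 ± 0.09 (edgeR adjusted p = 0.448). Its log2 ratio to Psmb7 was -0.39, -0.17 and -0.05 in KO-labelled libraries and 0.06 and 0.22 in WT libraries (difference -0.35, exact permutation p = 0.2, adjusted p = 0.3). Psmb10 was below both WT libraries in each KO-labelled library, and Psmb8 was above them.

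**Figure D4:**
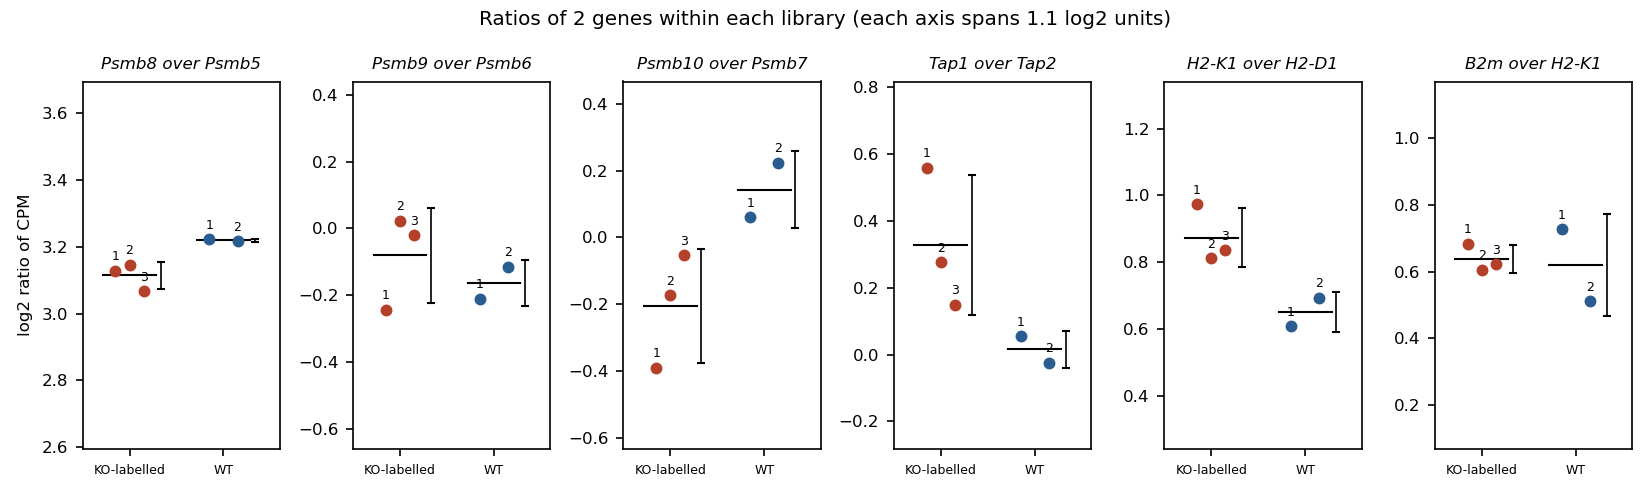
Log2 ratio of the CPM of a pair of genes within each library (y axis, 1.1 log2 units in every panel) for KO-labelled libraries (red, left) and WT libraries (blue, right); numbers name the libraries, lines are means and bars SD. The groups are apart for Psmb8 over Psmb5, Psmb10 over Psmb7, Tap1 over Tap2 and H2-K1 over H2-D1.

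Around the members, the other genes of class I presentation held no call either. Of 27 other class I and class I-like chains listed, 19 were tested, and 0 passed in either direction, with a median log2 fold change of 0.21 beside 0.001 over all tested genes. H2-Q6 and H2-Q8 had the same counts in every library, as did H2-Q7 and H2-Q9, so the 19 hold 17 separate measurements. The median of 0.21 counts both genes of each pair. With each pair counted once, the median is 0.10, the log2 fold change of H2-Q4. Means are given with their SD, n = 3 KO-labelled and n = 2 WT libraries. The highest mean CPM, not scaled by length, were those of H2-Q4, at 117 ± 7.77 CPM with the KO label against 109 ± 21.6 CPM in WT, and H2-T22, at 79.5 ± 7.01 CPM with the KO label against 65.4 ± 4.50 CPM in WT. Mr1, which presents vitamin B metabolites and was singled out after its values were seen, stood at 28.2 ± 2.78 CPM with the KO label against 39.1 ± 1.11 CPM in WT (log2 fold change -0.47 ± 0.13, edgeR adjusted p = 0.115). This list was sensitive to the settings: 4 of its genes passed without KO-labelled library 1 and 4 with limma and sample weights.

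Of 12 genes of peptide supply and loading 0 passed (median log2 fold change 0.12), among them the chaperones Calr, at 2120 ± 256 CPM with the KO label against 1894 ± 156 CPM in WT, and Canx, at 1076 ± 56.3 CPM with the KO label against 990 ± 63.6 CPM in WT. Of 14 standard proteasome subunits 0 passed (median log2 fold change 0.08), and 12 of 14 had a log2 fold change above 0, against 50.1% of all tested genes. Psma1, at 232 ± 16.2 CPM with the KO label against 225 ± 35.6 CPM in WT, and Psma7, at 222 ± 14.0 CPM with the KO label against 215 ± 5.95 CPM in WT, had the highest mean CPM among them. The subunits that the immunoproteasome replaces, Psmb5, Psmb6 and Psmb7, had log2 fold changes of 0.25, 0.01 and 0.18.

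Among the transcription factors of class I genes, the RFX subunits Rfx5, Rfxap and Rfxank, the NF-Y subunits Nfya, Nfyb and Nfyc, and Irf1 did not pass, with log2 fold changes between -0.16 and 0.29. The whole list held 13 tested genes, 7 with a log2 fold change above 0 and 6 below. Of the 13, 1 rose and 0 fell, against 0.794% higher and 1.19% lower over all tested genes. The gene that rose is also on the interferon signalling list below.

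The interferon receptor chains Ifngr1, Ifngr2, Ifnar1 and Ifnar2 each had a log2 fold change below 0, between -0.33 and -0.08, and none passed. They belong to a list of 11 interferon signalling genes. Of these, 4 had a log2 fold change above 0 and 7 below, against 50.1% of all tested genes above 0. Among the 11, 1 rose and 0 fell, against 0.794% higher and 1.19% lower over all tested genes. The gene that rose is not reported here. Irf9, a subunit of the transcription complex that type I interferon activates, named after its values were seen, stood at 132 ± 7.15 CPM with the KO label against 104 ± 1.85 CPM in WT (log2 fold change 0.35 ± 0.09, edgeR adjusted p = 0.0818).

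MHC class II genes, which show peptides from outside the cell to CD4 T cells and lie partly between the class I members on chromosome 17, are given for their values beside class I. Of 10 tested, 4 rose and 0 fell, against 0.794% higher and 1.19% lower over all tested genes. Those that rose were Cd74, the invariant chain (log2 fold change 1.32 ± 0.13, edgeR adjusted p = 0.00049), H2-Eb1 (1.12 ± 0.13), H2-Aa (1.02 ± 0.13) and H2-Ab1 (0.89 ± 0.12). The other 6 did not pass, with log2 fold changes between -0.12 for H2-Oa and 0.60 for Ciita, the class II transactivator; H2-DMa, a chain of the peptide exchange factor of class II, was at 0.03 (95% interval -0.17 to 0.23, unadjusted). H2-Eb1 stood at 158, 127 and 177 CPM in KO-labelled libraries and at 69.2 and 72.7 CPM in WT libraries. Leaving out WT library 1 left 0 class II calls, and leaving out WT library 2 left 1. Xcr1, a dendritic cell marker named after its values were seen, stood at 13.1, 7.60 and 13.5 CPM in KO-labelled libraries. In WT libraries it stood at 5.17 and 4.82 CPM, and it did not pass (edgeR adjusted p = 0.0566). Of the 13 macrophage and dendritic cell markers 0 passed. Of these, 8 had a log2 fold change above 0 and 5 below, among them Csf1r at -0.65, against 50.1% of all tested genes above 0. The part of dendritic cells in the class II values was not tested.

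**Figure D5:**
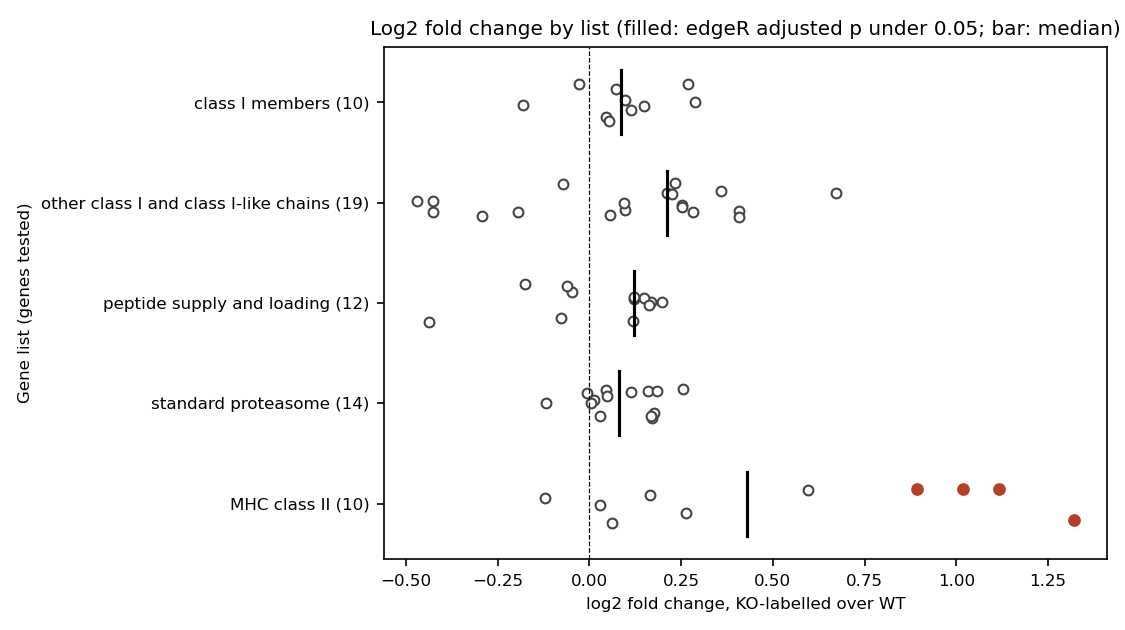
Log2 fold change of KO-labelled over WT libraries (x axis) for every tested gene of 5 lists (y axis, with the number tested); filled points passed edgeR's adjusted p of 0.05 and bars are list medians. The filled points are 4 class II genes. Among the other class I chains, genes with the same counts are each drawn and each counted in the median.

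Of the members, 8 lie on chromosome 17, in the major histocompatibility complex; B2m lies on chromosome 2 and Nlrc5 on chromosome 8. By the gene order of RefSeq's table, 159 genes other than class I and class II genes lie between Tapbp and H2-T23, the outermost members. Of these 93 were tested, and 1 rose and 1 fell, 2.15% against 1.98% of all tested genes, with a median log2 fold change of 0.02. The gene that rose was Ltb, a lymphotoxin chain (log2 fold change 0.75 ± 0.14, edgeR adjusted p = 0.0149), and the gene that fell was C4b, a complement component (-2.17 ± 0.49, edgeR adjusted p = 0.0399).

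Among the genes outside all lists whose centred log2 CPM over the 5 libraries lay nearest to the members' median profile were Nkrf, Wdr18, Shc1 and Snd1, at a root mean square distance of 0.014 to 0.018. The members' median profile itself was -0.03, 0.04 and 0.07 in KO-labelled libraries and -0.11 and -0.03 in WT libraries, so it was nearly flat, and nearness to it says only that those genes were nearly flat too.

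Markers of the sorted cells were present in every library: the 12 LSK markers, Kit, Ly6a and Cd34 among them, summed to 4799 to 5005 CPM with the KO label against 4906 to 4921 CPM in WT, and 0 of them passed. Markers of other cells, many of which carry class I molecules, were low but not absent. Their calls stand beside 0.794% higher and 1.19% lower over all tested genes. B cell markers summed to 64.0 to 67.9 CPM with the KO label against 50.4 to 62.3 CPM in WT (1 of 11 higher, 0 lower), T and natural killer cell markers to 31.7 to 51.4 CPM with the KO label against 58.6 to 61.5 CPM in WT (0 higher, 1 of 11 lower), and macrophage and dendritic cell markers to 521 to 769 CPM with the KO label against 604 to 660 CPM in WT (0 of 13), mostly Flt3, which is also on the LSK list. Neutrophil markers summed to 114 to 162 CPM with the KO label against 205 to 265 CPM in WT (0 higher, 2 of 9 lower), and erythroid markers to 248 to 345 CPM with the KO label against 142 to 150 CPM in WT (4 of 11 higher, 0 lower). Hbb-b1 and Hbb-bs had the same counts in every library, so the 11 erythroid markers hold 10 separate measurements. The erythroid sum includes both of these genes. Megakaryocyte markers summed to 716 to 1006 CPM with the KO label against 953 to 1138 CPM in WT (0 higher, 2 of 8 lower), and stromal and endothelial markers to 218 to 267 CPM with the KO label against 341 to 359 CPM in WT (0 higher, 2 of 8 lower). Among the defining markers, Pax5 was at 0 counts in KO-labelled library 3 and at no more than 20 in any library. Ncr1 was at 0 in KO-labelled library 3 and at 41 in WT library 1. Lepr and Col1a1 were at 0 in KO-labelled library 1, but Lepr was at 86 in WT library 2. Other markers of these lists were counted in every library, among them Cd79b (1283 to 1908 counts), Klrb1c (619 to 1725), Col1a2 (526 to 913) and Pdgfrb (1971 to 4111). The part of these cells in the class I values was not tested, and in bulk samples fewer cells of a type cannot be told apart from less RNA per cell.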

How the data were processed

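Per the labels' protocols, total RNA of sorted LSK cells went into stranded mRNA libraries. The deposited table holds the authors' raw counts per transcript, 33862 in all, for each of 5 libraries. Per the submitters' processing notes, the tools included STAR, featureCounts and Subread 1.4.5-p1, with build mm9 (NCBIM37). How strand and shared reads were handled is not given in the sources used here. Both groups and library numbers came from the titles. Total counts were 57535625, 63444643 and 63736139 for KO-labelled libraries 1 to 3, against 48113632 and 62238842 for WT; transcripts of a gene can share reads.

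Transcripts were named from RefSeq's table of GRCm38 (33485) or GENCODE's (188); 189 without a name, with 0.362% to 0.459% of counts, were left out. The transcript with the most counts was kept per gene, and among the members only Tap1 and Tapbp had a further transcript. The filter was filterByExpr and the scaling TMM. The test was edgeR's robust quasi-likelihood (edgeR 4.0.16, R 4.3.3), two-sided, with Benjamini-Hochberg adjustment over all tested genes and a threshold of 0.05; limma 3.58.1 and DESeq2 1.42.0 were alternatives. The common biological coefficient of variation was 18.8%. Ratios used log2 CPM with a prior count of 2. Transcript lengths and shared 50-base windows came from GENCODE transcripts paired by RefSeq identifier. The procedure was tested on simulated data.

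The members, lists and tests were chosen with earlier results of these data known. Genes named by rule were all members, and list genes past the threshold or, in a list with none, its 2 most abundant. The rule also covered the proteasome counterparts, the 5 nearest profiles, and called genes between the members on chromosome 17. Other genes fall outside this rule, and only some are said to be named after their values were seen. Those without that remark include the RFX and NF-Y subunits, Irf1, the interferon receptor chains, H2-DMa, H2-Oa, Ciita and Csf1r. The targeted gene and some genes that this rule names are not reported here. Alternatives were other scalings and tools, no filter, summed transcripts, another threshold, a length offset, leaving out each library, and a replicate block.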

Additional observations from a re-analysis of the deposited data

How the results depend on the processing

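Over all tested genes, 287 changed. That count became 574 with DESeq2, 624 with limma and sample weights, 455 without the count filter and 455 at an adjusted p under 0.10. It ranged from 6 to 673 when single libraries were dropped (673 without KO-labelled library 1, 135 without KO-labelled library 3, 6 without WT library 1, and 18 when WT library 2 was dropped). In the last pair of fits the lone WT sample is taken to vary as the KO-labelled ones do. No class I member rose; 2 did with DESeq2, 2 with limma and sample weights, 1 without the count filter, and 0 to 2 when single libraries were dropped, while 0 fell in all 14 alternatives. Of 78 companion genes 5 changed, 10 with limma and sample weights and 0 to 12 when single libraries were dropped.

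Adding the replicate block gave 150 changed genes, 0 of them members. The titles give the libraries of both groups only a shared number. Deviations from the group means correlated at 0.0414 between the libraries numbered 1 and at 0.0146 between those numbered 2. With 2 WT libraries the WT deviations mirror each other (KO-labelled library 1 with WT library 2 was at -0.0414). These values therefore cannot decide whether libraries are paired.

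The direction turned for H2-T23 (log2 fold change 0.010 with limma and sample weights, and -0.129 to 0.0819 when single libraries were dropped, above 0 without KO-labelled library 1 or WT library 2). It turned for Nlrc5 (-0.0473 to 0.165, below 0 without KO-labelled library 2 or WT library 1) and for the B2m over H2-K1 difference (-0.0899 to 0.126, below 0 without KO-labelled library 1 or WT library 2). The cause was not tested. The other 8 members kept their direction in all 14 alternatives. Cd74 kept its call in 13 of 14 alternatives, and H2-Aa, H2-Ab1 and H2-Eb1 in 12 of 14.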
